A study of Mus musculus with 22 samples.

Results

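The mouse assembly holds, beside its numbered and sex chromosomes, 44 scaffolds that could not be joined to them and the mitochondrial genome. The data described here are the Oct4 ChIP-seq peaks on those 45 sequences, taken as every row of 2 deposited peak lists whose sequence name is not a named nuclear chromosome. They number 478 of 5455 peaks in the Oct4-WT/WT list and 461 of 7479 peaks in the Oct4-KO/KO list. One peak in each list is the mitochondrial genome itself, and the other 477 and 460 peaks lay on 25 of the 44 scaffolds.

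ChIP-seq with an Oct4 antibody was done on frozen aortic segments (root, arch and branches as far as the fork of the carotid artery) of C57BL/6 mice, with 15 mice in each genotype. The SMC Oct4-Δ/Δ animals (labelled Oct4-KO/KO) carry a deletion of Oct4 in smooth muscle cells (SMC), made by a tamoxifen-activated Cre under the Myh11 promoter, and the SMC Oct4-WT/WT animals were littermate controls. Both genotypes were apoE-/-, carried the eYFP lineage reporter, were male, since that Cre is on the Y chromosome, and ate a Western diet for 18 weeks. The tissue was a mixture of SMC, macrophages and other cells, and the deletion does not reach the cells that never expressed Myh11. Each genotype is a single ChIP sample. Variation among replicates is therefore unknown, no test of genotype was possible, and the intervals below cover counting error within these samples only. Peak lists carry no measure of Oct4 protein or RNA, so loss of Oct4 was not checked here.

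Unplaced scaffolds are pieces of assembled sequence whose chromosome is unknown, and unlocalized scaffolds are pieces whose chromosome is known but whose position on it is not. Much of what resists assembly is tandem repeat, above all the major satellite that packs the heterochromatin beside mouse centromeres, of which a reference genome holds far fewer copies than a cell does. Mitochondrial DNA is a small circle present in many copies per cell and is packaged without histones. Oct4 (Pou5f1) is a POU-domain transcription factor known for its role in pluripotent cells, and its family binds the octamer ATGCAAAT.

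The sequences that carry the main patterns are printed first, from RefSeq GRCm38.p6, plus strand. The first is 1 unit of 234 bases from the highest wild-type peak of JH584304.1. Its capitals mark the 159 bases that recur 234 bases further on (67.9%).
Satellite unit JH584304.1:92787-93020: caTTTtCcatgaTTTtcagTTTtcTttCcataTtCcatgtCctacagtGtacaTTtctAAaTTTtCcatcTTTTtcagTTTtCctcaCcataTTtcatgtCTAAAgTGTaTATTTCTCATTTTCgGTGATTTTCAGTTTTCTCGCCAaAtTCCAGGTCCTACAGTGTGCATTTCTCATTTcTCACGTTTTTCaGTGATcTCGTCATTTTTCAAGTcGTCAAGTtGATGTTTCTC
The next pair are the 151 bases centred on the highest wild-type summits of GL456383.1 and GL456392.1. Capitals mark the bases that equal the unit above in a blastn alignment, 126 bases in the first and 135 in the second.
Satellite-aligned GL456383.1:27509-27659: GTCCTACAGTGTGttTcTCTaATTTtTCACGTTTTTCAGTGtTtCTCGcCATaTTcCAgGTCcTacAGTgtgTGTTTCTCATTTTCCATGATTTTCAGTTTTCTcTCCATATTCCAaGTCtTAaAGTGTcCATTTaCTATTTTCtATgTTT
Satellite-aligned GL456392.1:22080-22230: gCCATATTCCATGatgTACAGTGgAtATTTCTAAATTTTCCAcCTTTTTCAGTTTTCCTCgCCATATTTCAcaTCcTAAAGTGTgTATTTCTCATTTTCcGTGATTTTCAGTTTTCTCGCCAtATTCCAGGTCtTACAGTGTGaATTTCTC
Then follow 2 other tandem arrays under peaks. In the first, capitals mark the 82 of 105 bases that equal the base 21 positions earlier, and in the second the 124 of 124 bases that equal the base 31 positions earlier.
21-base array GL456393.1:41553-41657: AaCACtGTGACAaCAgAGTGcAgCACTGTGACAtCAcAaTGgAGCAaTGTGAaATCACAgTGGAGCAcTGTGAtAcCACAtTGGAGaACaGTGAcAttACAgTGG
31-base array GL456370.1:39-162: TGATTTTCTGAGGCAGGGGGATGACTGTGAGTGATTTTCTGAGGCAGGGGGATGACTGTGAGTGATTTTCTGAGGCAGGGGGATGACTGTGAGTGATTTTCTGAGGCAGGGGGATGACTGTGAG
The remaining sequences are 1 of 2 wild-type peaks of JH584304.1 tied as the highest whose window does not align to the unit (the other is JH584304.1:12215-14467, and the wider is shown), the highest wild-type peak with no knockout overlap on a scaffold assigned to chromosome 1, and both mitochondrial summits. Capitals mark the summit and the 10 bases to each side of it.
JH584304.1 outside the satellite JH584304.1:66524-66624: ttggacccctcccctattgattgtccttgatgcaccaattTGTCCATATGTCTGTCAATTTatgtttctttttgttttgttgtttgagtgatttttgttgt
Chromosome 1 unlocalized GL456221.1:130279-130329: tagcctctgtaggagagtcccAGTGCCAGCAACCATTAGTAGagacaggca
Mitochondrial, wild-type summit chrM:565-665: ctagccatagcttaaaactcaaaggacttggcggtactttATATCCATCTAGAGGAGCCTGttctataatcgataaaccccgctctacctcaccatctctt
Mitochondrial, knockout summit chrM:3682-3782: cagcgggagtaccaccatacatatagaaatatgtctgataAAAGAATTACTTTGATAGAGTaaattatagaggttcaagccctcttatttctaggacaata

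Few scaffolds held most of the peaks, and the counts in both genotypes were close. On GL456383.1 there were 92 wild-type and 88 knockout peaks, on JH584304.1 59 and 65, on GL456389.1 48 and 51, and on GL456393.1 46 and 50. GL456392.1 had 38 and 36 peaks, GL456390.1 37 and 38, GL456396.1 27 and 25, and GL456239.1 22 and 20. These 8 scaffolds, which are all unplaced and total 347187 bases, held 77.2% of the wild-type and 80.9% of the knockout peaks outside the named chromosomes. A further 17 scaffolds had 0 to 19 peaks per list. The other 19 scaffolds had none in either list, and together they are 3129932 bases long, the longest of them (JH584299.1) 953012 bases. Counts were higher in the wild-type on 11 scaffolds, higher in the knockout on 8 and equal on 6. Outside the scaffolds assigned to chromosome 1 no scaffold differed by more than 6 peaks.

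**Figure D1:**
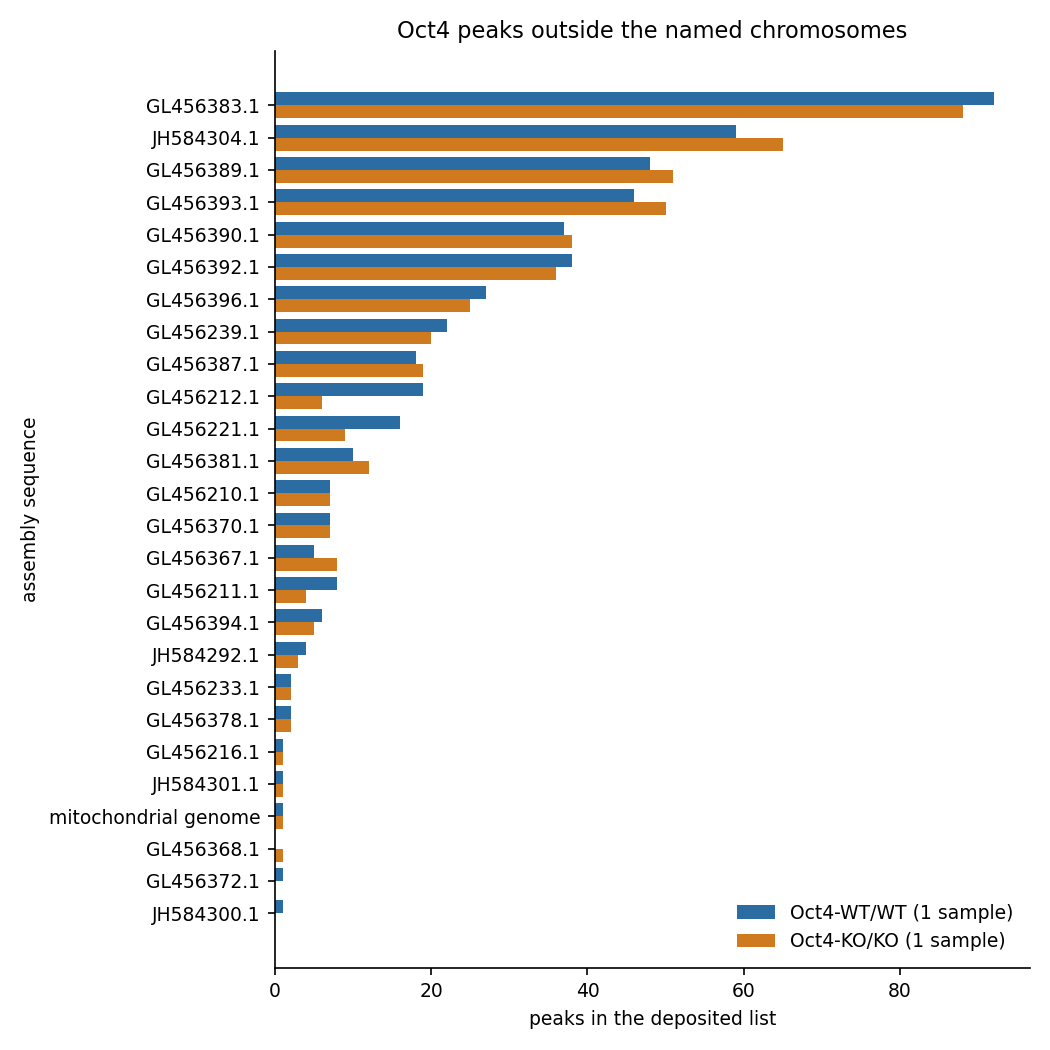
Number of peaks in each deposited list (horizontal axis) on each of the 25 scaffolds with a peak and on the mitochondrial genome (vertical axis), with 1 bar per genotype and 1 sample per bar. The paired bars are close on most scaffolds, from 92 and 88 peaks on GL456383.1 downward, and are farthest apart on GL456212.1 (19 and 6).

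Set against the rest of the lists, these sequences were dense in peaks. The wild-type had 89.3 peaks per Mb on them and 1.83 per Mb on the named chromosomes, and the knockout had 86.2 and 2.57. List lengths compared differently inside and outside these sequences, which was not tested for lack of replicates. On the named chromosomes the knockout list was 1.41 times as long as the wild-type list (7018 and 4977 peaks), whereas on the scaffolds and the mitochondrial genome it was 0.964 times as long. Scaffold and mitochondrial peaks thus made up 8.76% of the wild-type list (exact 95% binomial interval 8.03 to 9.54) and 6.16% of the knockout list (5.63 to 6.73). By bases they made up far more, 31.1% of all peak bases in wild-type and 27.8% in knockout tissue.

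Peaks covered 196259 bases of these sequences in wild-type and 196098 in knockout tissue. The 2 sets of bases were largely the same. They had 182326 bases in common, 92.9% of the wild-type bases and 93.0% of the knockout bases. Most of them lay on JH584304.1 (106605) and the mitochondrial genome (16299), which peaks cover nearly whole in both lists. Without these sequences the lists covered 70938 and 70992 bases, with 83.8% and 83.7% in common. On the named chromosomes 69.9% of the wild-type and 59.6% of the knockout peak bases were in common. A single scaffold, JH584304.1, supplied more bases than all other sequences together, with 109022 of its 114452 bases inside wild-type peaks (95.3%) and 108807 inside knockout peaks (95.1%). GL456390.1 followed with 67.8% and 70.7% of its bases other than N, then GL456383.1 with 51.7% and 52.1%, GL456392.1 with 47.6% and 49.1%, GL456396.1 with 36.8% and 38.7%, and GL456389.1 with 36.1% and 35.6%. Coverage was lower on GL456393.1 (17.0% and 17.0%) and GL456239.1 (4.59% and 5.66%). On the other scaffolds it was at most 6.55%.

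**Figure D2:**
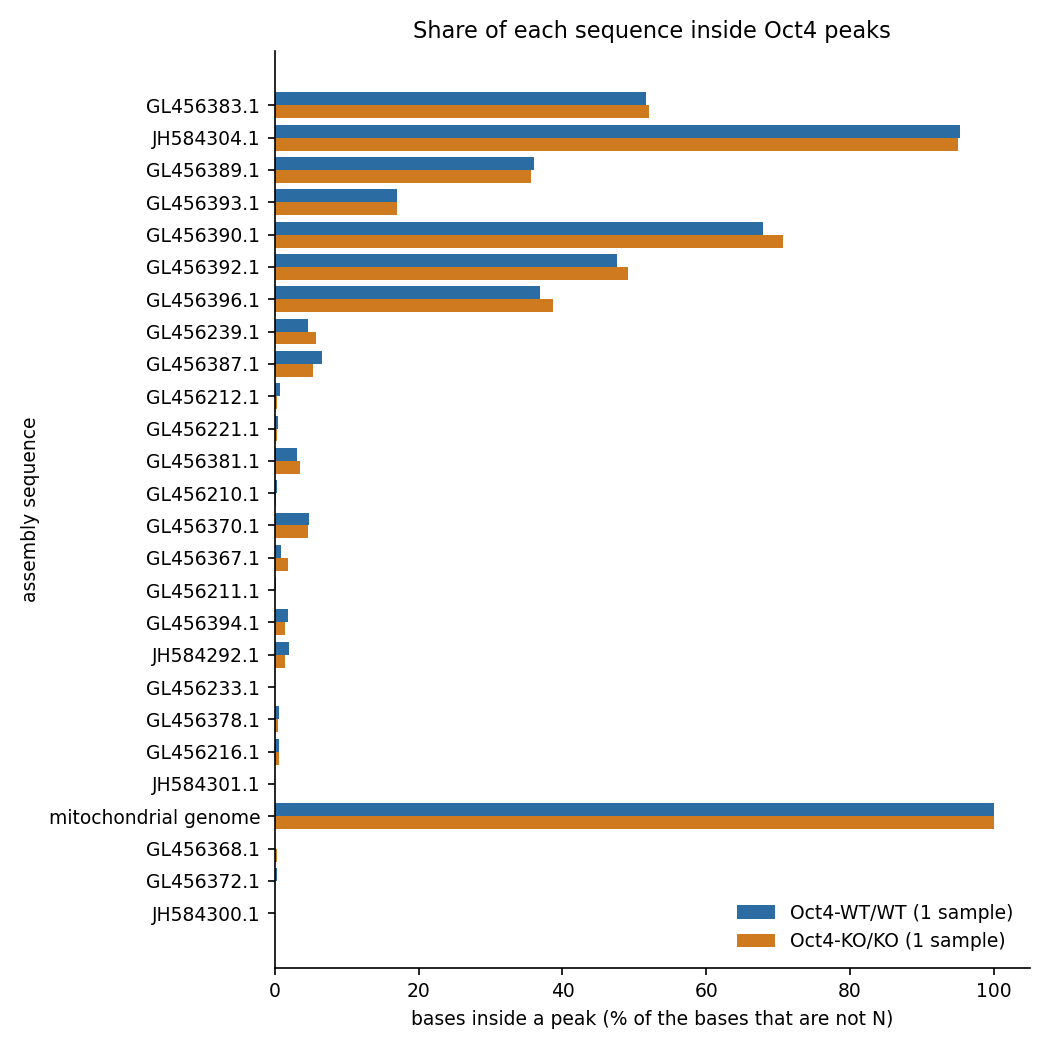
Share of the bases other than N of each sequence that lies inside a peak (horizontal axis, percent), for the sequences of the peak-count plot in the same order, with 1 bar per genotype. The mitochondrial genome is covered whole in both genotypes, JH584304.1 to 95.3% and 95.1%, and most scaffolds with few peaks to under 2%.

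Widths ran from 41 to 47394 bases in the wild-type and from 39 to 52296 bases in the knockout. The median width was 105 bases (quartiles 57 and 259) in the wild-type and 115 bases (quartiles 57 and 294) in the knockout. On the named chromosomes the medians were 50 and 46 bases. The widest peaks were alike in place. In the wild-type the widest ran over JH584304.1:67053-114446, and in the knockout over JH584304.1:62151-114446, where it took in a stretch that the wild-type list gives as a separate peak of 4838 bases at JH584304.1:62163-67000. The mitochondrial peaks, of 16299 bases each, came next, and peaks wider than 1000 bases numbered 29 in wild-type and 24 in knockout tissue.

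Fold enrichment in these lists is the number of fragments stacked at the summit plus 1, divided by the number expected plus 1. The median was 11.0 in the wild-type (quartiles 6.86 and 16.5) and 10.9 in the knockout (quartiles 7.52 and 17.1), against 7.54 and 7.52 on the named chromosomes. The 4 highest wild-type peaks all had a fold of 56.9, a summit of 82 fragments, and the 4 highest knockout peaks all had a fold of 54.0, a summit of 78 fragments. They lay at the same 4 places in both lists, namely the wide peak of JH584304.1 and peaks of GL456392.1 (wild-type GL456392.1:21705-23603, knockout GL456392.1:21703-23600), GL456389.1 (GL456389.1:10336-10986 and GL456389.1:10339-10964) and GL456396.1 (GL456396.1:11943-12550 and GL456396.1:11942-12547). On the named chromosomes a further 11 wild-type and 16 knockout peaks had these values. The highest stack was 2.0 times the narrowest peak width in both lists (41 and 39 bases), which is the most that unduplicated fragments of that length can reach on both strands, so peaks at this level cannot be ranked.

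The highest peaks of the other named scaffolds were close in place and fold between genotypes, apart from GL456239.1. GL456390.1 reached a fold of 48.0 in the wild-type (GL456390.1:19316-19582) and 49.3 in the knockout (GL456390.1:19295-19620). The highest peak of GL456383.1 had a fold of 42.5 in the wild-type (GL456383.1:27041-27727), and in the knockout the overlapping peak had 41.0 (GL456383.1:27277-27722), 1 of 2 tied as the highest there. At the start of GL456393.1 the fold was 41.1 in the wild-type (GL456393.1:2-325) and 43.1 in the knockout (GL456393.1:5-325). GL456239.1 was lower, at 13.7 (GL456239.1:35723-35861) in the wild-type, where the overlapping knockout peak had 8.89 (GL456239.1:35730-35776). Its highest knockout fold, 9.58, was tied among 3 other peaks (GL456239.1:33784-33842, GL456239.1:36144-36204 and GL456239.1:38088-38317).

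Of the wild-type peaks, 384 of 478 overlapped a knockout peak by 1 base or more, a share of 80.3% (exact 95% binomial interval 76.5 to 83.8), against 67.9% of all wild-type peaks. Of the knockout peaks, 384 of 461 overlapped a wild-type peak, 83.3% (79.6 to 86.6), against 49.8% of all knockout peaks. The share without overlap was therefore 94 peaks in wild-type and 77 in knockout tissue. The comparison with all peaks is not like for like. Peaks here were wider than on the named chromosomes (medians 105 and 115 against 50 and 46 bases). Many lay on sequences largely inside peaks, such as JH584304.1 (95.3% and 95.1%), where an overlap of 1 base arises easily. Overlap went with fold. All 257 wild-type peaks at fold 10 or above overlapped a knockout peak, against 1211 of 1223 such peaks on the named chromosomes, and 10 of 42 with a fold under 5 did (23.8%, against 17.6%). In the knockout 256 of 258 at fold 10 or above overlapped a wild-type peak (99.2%, against 88.1% on the named chromosomes), and 8 of 21 with a fold under 5 (38.1%, against 22.6%). At a fold from 7 to under 10, 86.8% of the wild-type peaks (77.1 to 93.5) and 79.4% of the knockout peaks (70.0 to 86.9) overlapped, and on the named chromosomes 81.9% (79.8 to 83.8) and 40.05% (38.0 to 42.1).

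The peaks without overlap were low. The highest in the knockout list had a fold of 10.3, shared by GL456367.1:11798-11870 and GL456393.1:52533-52582, and the highest in the wild-type list had a fold of 8.91, shared by GL456381.1:11697-11758 and GL456387.1:12424-12474.

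Where 1 wild-type peak overlapped 1 knockout peak and no other, the fold could be set side by side in 264 pairs. The median fold was 12.3 in both genotypes, and the median log2 ratio of knockout to wild-type was 0.06 (quartiles -0.14 and 0.26, range -1.003 to 1.08). In 3 pairs both summits were at the highest stack of their list and could not be ranked. Among the other 261 the stack was higher in the knockout in 143 pairs, higher in the wild-type in 97 and equal in 21. The kinds of sequence described below split differently. Among the 180 pairs aligned to the satellite it was higher in the knockout in 102 and in the wild-type in 59, those 3 included, among the 53 pairs of 21-base arrays in 25 and 26, and among the 15 other pairs of JH584304.1 in 5 and 10 (median log2 ratio -0.23). Pearson's r of log2 fold over the 264 pairs was 0.92, given as a description, since the pairs share 2 libraries and neighbouring repeats. Summits lay a median of 5 bases apart, and 180 pairs had summits within 10 bases. The pair farthest to the knockout side was at GL456389.1:3408-3488, with a fold of 5.49 in wild-type and 11.6 in knockout tissue, a difference of 7 against 16 fragments.

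**Figure D3:**
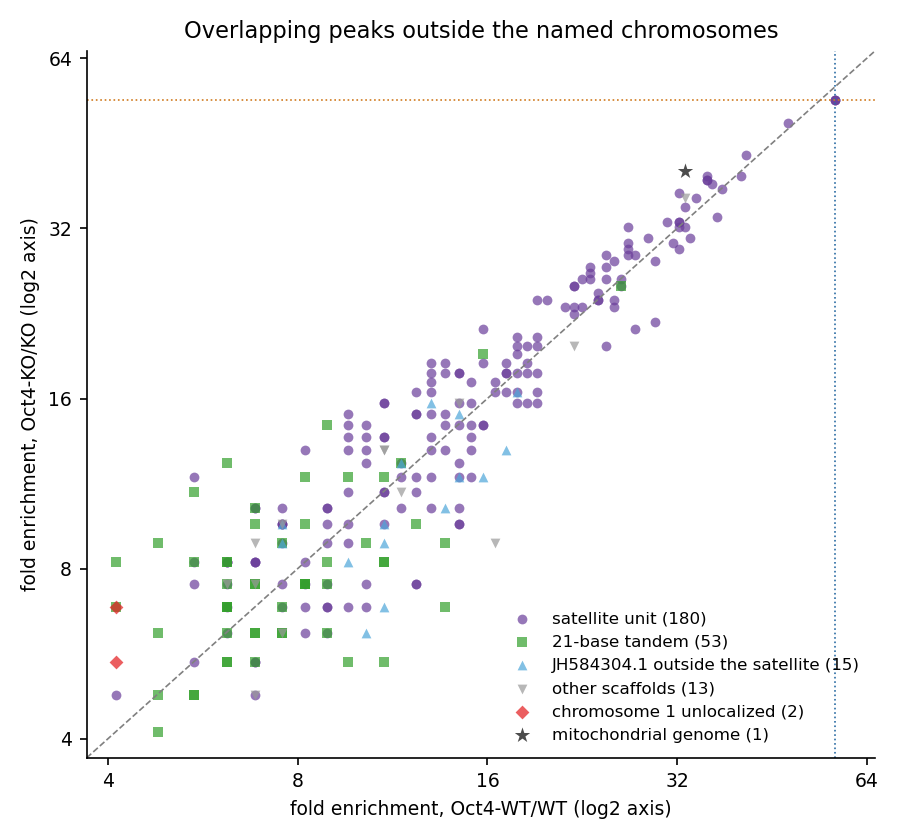
Fold enrichment in the knockout (vertical log2 axis) against that in the wild-type (horizontal log2 axis) for the 264 pairs of peaks that overlap 1 to 1, with symbols by kind of sequence and the number of pairs in the key. The dashed line marks equal values and the dotted lines the highest fold of each list, 56.9 and 54.0; the 84 pairs at a wild-type fold of 16 or above lie a median of 0.10 from the dashed line on the log2 scale, with JH584292.1 farthest at 0.89, and the 180 lower pairs a median of 0.29.

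The scaffolds with many peaks held tandem repeats to differing degrees, and on JH584304.1 41.7% of bases aligned to the satellite unit. When JH584304.1 was set against itself, the best match was at a shift of 234 bases, where 44.9% of bases were equal, with lesser peaks at 58 and 176. GL456390.1 matched itself best at 117 bases (46.3%), and GL456396.1 also at 117. GL456383.1, GL456389.1 and GL456392.1 matched best at 58 or 59 bases. A shift of 21 bases was best on GL456393.1 (53.9%), GL456381.1 (59.7%), GL456387.1 (60.9%) and GL456394.1 (39.0%), and on GL456239.1, where it reached only 34.5%. GL456212.1, a scaffold with 19 and 6 low peaks, had no such period, with at most 28.6% of bases equal at any shift from 10 to 300 bases.

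**Figure D4:**
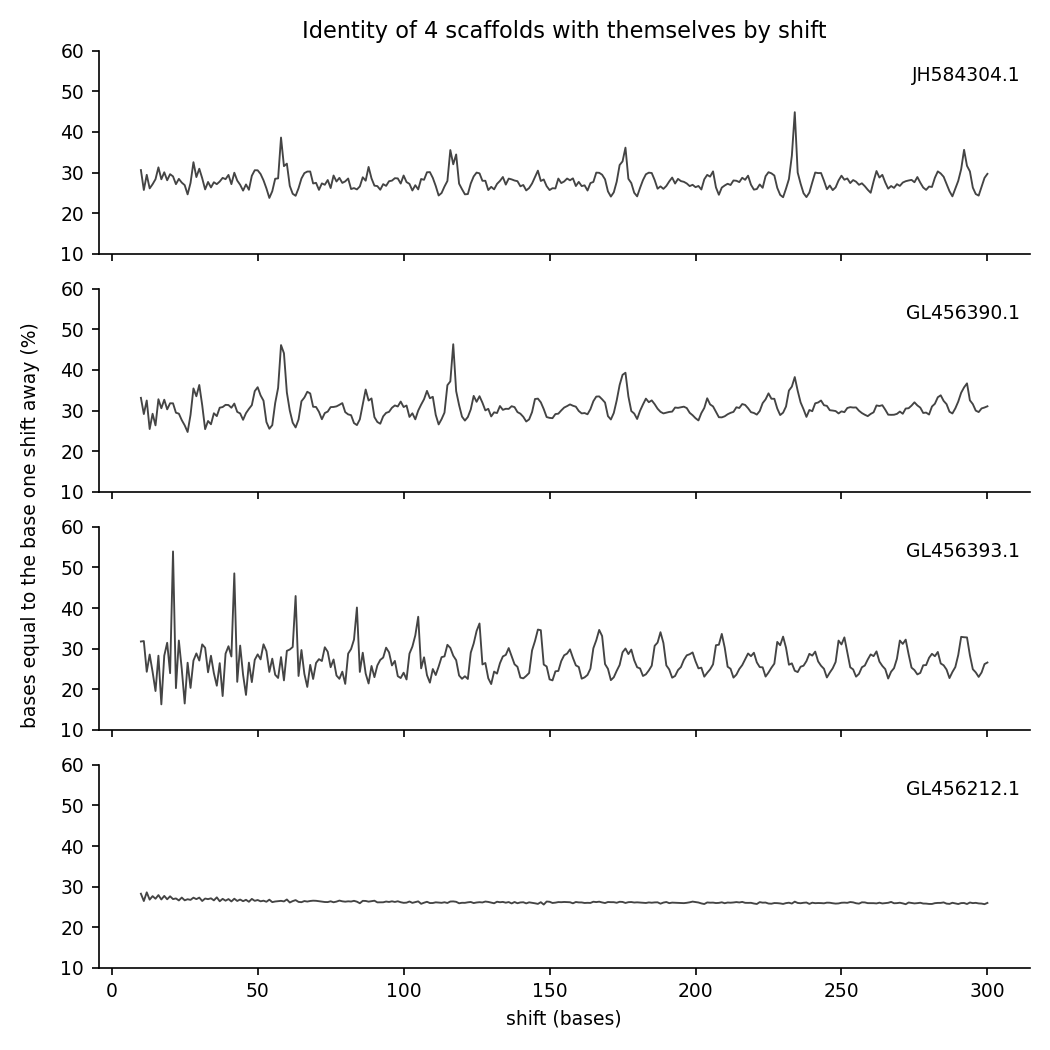
Share of bases equal to the base 1 shift away (vertical axis, percent) for shifts of 10 to 300 bases (horizontal axis) on 4 scaffolds. JH584304.1 peaks at 234 bases (44.9%), GL456390.1 at 117 (46.3%) and GL456393.1 at 21 (53.9%) with its multiples, while GL456212.1 stays at or below 28.6%.

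The peaks were grouped by the sequence around the summit, a grouping made after seeing the data. In 260 wild-type and 258 knockout peaks the 201 bases around the summit aligned to the 234-base satellite unit, 54.4% (exact 95% binomial interval 49.8 to 58.9) and 56.0% (51.3 to 60.6) of the peaks outside the named chromosomes. The same was true of 2.13% of the wild-type and 1.55% of the knockout peaks on the named chromosomes, most often on Y (33 and 30 peaks), X (17 and 25) and 11 (16 and 11). Identity to the unit was 75.1% at the median in the wild-type (range 68.5 to 90.5) and 74.9% in the knockout. All peaks of GL456383.1, GL456389.1, GL456390.1, GL456392.1 and GL456396.1 were of this kind (242 and 238 peaks), as were 14 of 46 and 16 of 50 on GL456393.1.

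Satellite-aligned peaks had the highest median fold of the scaffold groups, and nearly all overlapped between genotypes. Of 260 in the wild-type, 253 overlapped a knockout peak (97.3%, 94.5 to 98.9), against 67.9% of all wild-type peaks. Of 258 in the knockout, 249 overlapped a wild-type peak (96.5%, 93.5 to 98.4), against 49.8% of all knockout peaks. At fold 10 or above on the named chromosomes, 1211 of 1223 wild-type peaks and 88.1% of the knockout peaks overlapped. The satellite-aligned peaks had a median fold of 14.4 and 15.7, and a median width of 145 and 153 bases. They did not fill the repeat evenly. Of the bases of GL456383.1 that aligned to the unit, 54.5% lay in wild-type and 55.0% in knockout peaks, on GL456392.1 73.2% and 75.6%, and on GL456396.1 74.2% and 78.0%. Neighbouring peaks of this group were separated by a median gap of 104 bases in both genotypes, and their summits by a median of 323 and 321 bases. On the 5 scaffolds above, nearly every peak base aligned to the unit (at least 99.9%), although on GL456396.1 the repeat is 49.6% of the bases other than N.

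JH584304.1 has a satellite block at its end and a different sequence before it. The block, JH584304.1:67398-114452, lay inside a single peak in each genotype to 99.99% of its length, with the highest fold of the list. Of the 67397 bases before it, 92.0% lay inside wild-type peaks and 91.6% inside knockout peaks, and 58 and 64 summits fell there. These shares include the start of the wide peak, whose summit is in the block. That peak begins at base 67053 in the wild-type list and already at base 62151 in the knockout list. A small second block, JH584304.1:60175-60861, lay wholly inside a peak in both lists, with a fold of 35.7 in wild-type and 39.7 in knockout tissue. Outside both blocks there were 57 wild-type and 63 knockout peaks, with a median fold of 11.7 and 10.9 and a median width of 622 and 460 bases. All 57 wild-type and 62 of the 63 knockout peaks overlapped the other genotype by 1 base or more, which says little here, since the lists cover 92.0% and 91.6% of the bases before the end block. Around their summits a median of 66.7% and 64.3% of the 31-base words also occurred on the named chromosomes, most often chromosome 11, which was the leading chromosome for 46 of 58 and 49 of 64 summits before the block.

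The 21-base arrays gave lower and narrower peaks. There were 84 in wild-type and 86 in knockout tissue, on 5 scaffolds, with a median fold of 6.86 and 7.52 and a median width of 61 and 53 bases. Of these, 57 (67.9%, 56.8 to 77.6) and 54 (62.8%, 51.7 to 73.0) overlapped the other genotype, against 67.9% of all wild-type and 49.8% of all knockout peaks. Their GC content was 49.3% and 48.8% at the median, against 36.8% and 36.8% in the satellite-aligned peaks. Some of the largest differences between paired peaks, in either direction, were in this group. At GL456393.1:51249-51327 the fold was 13.7 in wild-type and 6.84 in knockout tissue, and at GL456393.1:31095-31135 it was 6.17 in wild-type and 12.3 in knockout tissue. The 31-base array at the start of GL456370.1 held that scaffold's highest peak, with a fold of 32.9 in the wild-type (GL456370.1:15-158) and 36.3 in the knockout (GL456370.1:17-167).

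Of 5 scaffolds assigned to chromosome 1, GL456213.1 had no peak, and the other 4 held low peaks with little overlap between genotypes. GL456210.1, GL456211.1, GL456212.1 and GL456221.1 together had 50 wild-type and 26 knockout peaks. By scaffold the counts were 7 and 7, 8 and 4, 19 and 6, and 16 and 9. Only 2 peaks of each list overlapped, 4.0% of the wild-type (exact 95% binomial interval 0.488 to 13.7) and 7.69% of the knockout (0.946 to 25.1), against 67.9% and 49.8% of all peaks. On the named chromosomes the share was 17.6% and 22.6% of the peaks with a fold under 5, and 45.2% and 26.1% of those with a fold from 5 to under 7. The folds were near the floor of the lists, with a median of 4.80 in the wild-type (4.11 to 7.54) and 5.47 in the knockout (4.10 to 6.84), and 27 of the 50 and 9 of the 26 rested on a stack of 5 or 6 fragments. These 4 scaffolds held 48 of the 94 wild-type and 24 of the 77 knockout peaks without overlap. Without them, 89.3% of the wild-type and 87.8% of the knockout peaks overlapped the other genotype, and the counts were 428 and 435.

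Most of the sequence at those peaks was repeated elsewhere. At the median 81.0% of the 31-base words around their summits occurred on the named chromosomes in both genotypes. Of the matches on chromosome 1, 32.1% fell in the bin 1:85000001-86000000, which was the fullest of the 1 Mb bins. That bin held 30 wild-type and 18 knockout peaks, with a median fold of 5.49 and 5.47. Of these, 1 in each list overlapped the other, against 67.9% and 49.8% of all peaks. Among named-chromosome peaks with a fold from 5 to under 7 the overlapping share was 45.2% and 26.1%. How reads that match several places were assigned is not given in the sources used here, and its part in these counts was not tested.

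**Figure D5:**
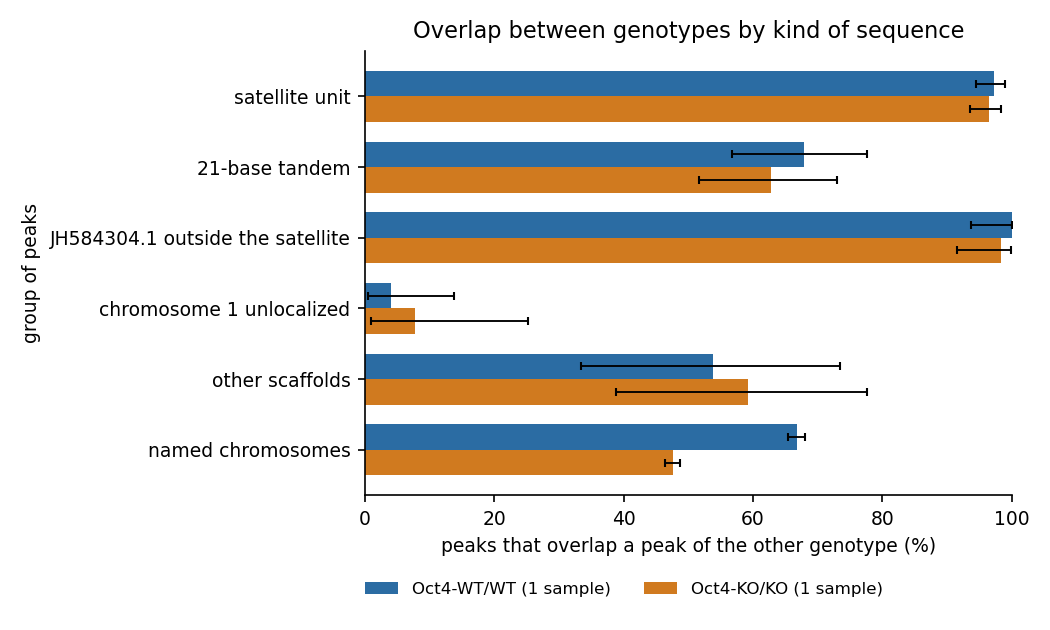
Share of peaks that overlap a peak of the other genotype by 1 base or more (horizontal axis, percent), by kind of sequence (vertical axis) and for the named chromosomes, with 1 bar per genotype and exact 95% binomial intervals that cover counting error only. The satellite-aligned group stands at 97.3% and 96.5%, the 21-base arrays at 67.9% and 62.8%, and the chromosome 1 scaffolds at 4.0% and 7.69%. The groups differ in how much of their sequence lies in peaks, so the bars are not like for like.

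The remaining 26 wild-type and 27 knockout scaffold peaks were spread over 10 and 9 scaffolds. Of them, 14 (53.8%, 33.4 to 73.4) and 16 (59.3%, 38.8 to 77.6) overlapped the other genotype, against 67.9% and 49.8% of all peaks. Apart from these, on GL456216.1, assigned to chromosome 4, the only peak of each list aligned to the satellite unit, with a fold of 26.7 in wild-type and 30.1 in knockout tissue. Scaffolds assigned to the Y chromosome, which are nearly all repeat-masked, had 2 wild-type peaks and 1 knockout peak in all.

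The mitochondrial genome was a single peak from its first to its last base in both lists. The fold was 32.9 in the wild-type, a stack of 47 fragments, with the summit at base 615, in mt-Rnr1 (chrM:70-1024, plus strand), the gene of the small ribosomal RNA. In the knockout it was 40.4, a stack of 58 fragments, with the summit at base 3732, in mt-Ti (chrM:3706-3774, plus strand), the isoleucine tRNA gene. The summits were 3117 bases apart. Neither lay in the D-loop (chrM:15423-16299), the control region of the molecule. Since the peak is the whole molecule, all 37 mitochondrial genes (13 protein-coding, 22 tRNA and 2 rRNA) lay inside it, and it singles out none of them. Copies of mitochondrial DNA per cell and enrichment by the antibody cannot be told apart in these lists.

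The sequence at the summits was also compared with that of peaks on the named chromosomes. The median GC content within 100 bases of the summit was 38.3% in both genotypes, against 43.3% in wild-type and 42.8% in knockout tissue on the named chromosomes. The octamer ATGCAAAT, sought on both strands of the same 201 bases, was in the windows of 0 of 478 wild-type peaks (exact upper limit 0.769%) and 2 of 461 knockout peaks (0.434%, 0.0526 to 1.56). On the named chromosomes it was in 102 of 4977 wild-type (2.05%) and 182 of 7018 knockout peaks (2.59%), and in windows of that size without a summit on the 25 scaffolds with peaks and the mitochondrial genome it was in 157 of 9956 (1.58%). Most of those windows are on the 17 scaffolds with fewer peaks, which total 1856986 bases. Searched over whole peaks, which run from 39 to 52296 bases, the octamer was in 7 peaks of each list, so these counts depend on the window. With 1 mismatch allowed, 15.3% of the wild-type and 15.8% of the knockout peaks held it, against 20.9% and 22.5% on the named chromosomes. A match is a description of the letters and not a binding site, and no match says only that these letters were not in the window. The intervals above count each window as independent. Since 260 wild-type and 258 knockout windows aligned to the same satellite unit, those intervals are likely too narrow.

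Both knockout peaks with the octamer in the window were on scaffolds assigned to chromosome 1 and had no wild-type overlap. They had a fold of 5.47 (GL456211.1:192429-192467) and 4.10 (GL456212.1:10742-10803), and the octamer lay past the end of the first peak and inside the second. In the lines below, capitals mark the octamer, which is on the minus strand in the first and on the plus strand in the second.
Octamer GL456211.1:192457-192504: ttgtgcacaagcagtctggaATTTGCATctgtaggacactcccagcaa
Octamer GL456212.1:10766-10813: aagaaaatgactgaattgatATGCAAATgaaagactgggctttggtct

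Annotated genes under these peaks depended on the annotation. GENCODE M21 places 86 genes on the scaffolds, 77 of them protein-coding, and 7 were overlapped in wild-type and 7 in knockout tissue, 6 of them in both. Of 23 scaffolds with a gene, 12 had no peak in either list. RefSeq places 139 genes there, of which 21 were overlapped in the wild-type, 18 in the knockout and 24 in either. Summits fell outside GENCODE genes in 94.1% of the wild-type and 95.7% of the knockout scaffold peaks, in introns in 23 and 16 peaks, in a UTR or other exon outside coding sequence in 4 and 3, and in a coding exon in 1 and 1. Against RefSeq, 80.3% and 83.0% of the summits fell outside genes. The RefSeq transcribed pseudogene LOC100861749 (JH584304.1:4567-52729) alone was overlapped by 46 wild-type and 48 knockout peaks, over 44141 and 44174 bases, and LOC100041903 on GL456212.1 by 13 and 4 peaks.

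Spry3, which encodes a sprouty inhibitor of receptor tyrosine kinase signalling, lay on GL456233.1 (assigned to X) and had 1 intronic peak in each genotype, with a fold of 11.0 in the wild-type (GL456233.1:105962-106012) and 13.0 in the knockout (GL456233.1:105968-106013). Csprs, a component of the Sp100-rs repeat family, lay on GL456221.1 (assigned to chromosome 1), which had 16 and 9 peaks in all. It was overlapped by 15 wild-type and 7 knockout peaks, of which 1 in each list overlapped the other. The highest fold was 7.54 and 6.84. AC149090.1, the gene model at the place where RefSeq has the phosphatidylserine decarboxylase pseudogene Pisd-ps3, lay on JH584304.1 and was covered to 92.7% by 8 wild-type peaks and to 91.1% by 10 knockout peaks. The other 4 overlapped protein-coding models were, like Csprs, on the chromosome 1 scaffolds. AC132444.5 and AC133103.1 had 1 peak in each list, at places that did not overlap between the lists, AC168977.1 had 2 in wild-type and 0 in knockout tissue, and AC125149.3 had 0 and 2, all with a fold of at most 6.86.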

How the data were processed

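Oct4 ChIP-seq of aortic tissue was used as 2 samples, 1 per genotype. Per the methods, the authors used Bowtie for alignment to GRCm38.p6, SAMtools for duplicate removal and MACS2 for peak calling, with q below 0.05. The treatment of reads with several matches and the control of each call are not given in the sources used here. The expected number was the same for every peak of a list, so no control or local background changed the fold from place to place. The deposited lists give, as the authors' MACS2 output, a score, the fold enrichment (a ratio), the −log10 p and −log10 q, and the summit offset in bases as another value. Of 3 deposited lists, the wild-type and the wild-type over knockout list are identical apart from names, so the wild-type and knockout lists were used, with no further filter. The Klf4 ChIP-seq, bulk RNA-seq and single-cell data were not analysed here.

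The summit stack was computed from the spacing of the fold values, with an expected 0.458 (wild-type) and 0.462 (knockout) fragments, and checked against the deposited −log10 p (largest difference 3.5e-05 and 3.0e-05). The total number of reads is not known. Peaks were called overlapping at 1 base or more. Scaffold names were paired with RefSeq sequences by accession, without an assembly report. On 5 scaffolds 7 of 7 gene symbols in both annotations lay at the same place, and 0 of 937 peaks ran past the end of a sequence. The 8 scaffolds with most peaks hold no such symbol, so there the pairing rests on the accession, on the ends and on 2 of 742 peaks touching N, which is 8.17% of their bases. Windows of 100 bases to each side of the summit were searched for the octamer, compared by 31-base words with the assembly and aligned with blastn 2.17.0 (word size 7, e-value 1e-05) to the satellite unit. A peak was put in the 21-base group where at least 50% of bases within 300 bases of the summit equalled the base 21 or 42 positions away. Intervals are exact (Clopper-Pearson) and treat peaks as independent, although many lie on copies of the same repeat. Scripts ran under Python 3.11.15 (pandas 2.3.3, numpy 2.4.6, numba 0.67.0, scipy 1.17.1, matplotlib 3.10.9) and were tested on simulated data.

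The members, lists and rules were chosen with earlier results of these data known. Scaffolds with at least 20 peaks in either list were named, as were the 3 highest peaks per list (4 by ties), the highest without overlap, the highest of each named scaffold, the mitochondrial peaks and the protein-coding genes overlapped. The sequence groups, the remaining peaks named and the 1 Mb bin were chosen after seeing the values.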

Additional observations from a re-analysis of the deposited data

How the results depend on the processing

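No paired analysis was possible because there was 1 ChIP sample per genotype. Of 66 alternative values over 32 results, 50 stayed close to the reported value (within its interval where one was computed, otherwise within 1.5 times). The wild-type over knockout list, identical to the wild-type list apart from names, is not counted among them. Joining peaks within 100 bases lowered the counts from 478 and 461 to 307 and 277. Requiring 50% of a peak to be covered lowered the overlapping share of knockout peaks to 79.4%. Settings chosen after seeing the data were a satellite unit from chromosome 9, which gave the same 260 and 258 peaks, and an identity of 40% for the 21-base group (85 and 90 peaks). Without the chromosome 1 scaffolds, also chosen after seeing the data, the overlapping share rose to 89.3% and 87.8%. Without JH584304.1 and the mitochondrial genome, again chosen after seeing the data, the lists covered 70938 and 70992 bases, and the overlapping share of peaks was 77.5% and 80.8%. In whole peaks instead of summit windows the soft-masked median was 65.9% and 68.9% (54.5% and 55.7% in windows), and the octamer was in 7 wild-type peaks and 7 knockout peaks. Allowing 1 mismatch put the octamer in 73 and 73 peaks. With a summit within 1 kb of a gene start, 4 scaffold genes in the knockout, and 4 and 5 mitochondrial genes, were counted. Leaving out GL456383.1 or the mitochondrial genome, a q of 0.01, the other definitions of overlap and lengths without N moved no value that far. Limits are the single sample per genotype, stacks of 5 or 6 fragments at the lowest peaks, the highest stack possible at the tallest, the unknown treatment of reads that match several places, and the pairing of scaffold names with sequences without an assembly report.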
